A study of Mus musculus with 10 samples.

Results

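The genes described here write, maintain and read DNA methylation: Dnmt1, Dnmt3a, Dnmt3b, Uhrf1, Mbd1, Mbd2, Mbd3 and Mbd4. They were found by their symbols in the array annotation, 8 of 12393 genes that it names, and were read by 20 of 22626 probe sets, the units of each array measurement. Brain RNA of C57BL/6 mice, an inbred strain, was measured on 10 Affymetrix MOE430A arrays, a design with 1 or more sets of short probes per transcript. The mice were 8 weeks old (4 arrays, replicates 1 and 2 labelled female and 1 and 2 labelled male) or 1 week old (6 arrays, replicates 1 to 3 of each label). No treatment or genotype beyond the strain is given, and the labels number the brains without stating that they came from separate animals, so p-values measure the spread between these samples.

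DNA methylation adds a methyl group to cytosine, in most tissues at the dinucleotide CG. DNMT3A and DNMT3B place new marks, and DNMT1 copies existing marks onto the daughter strand after replication, brought there by UHRF1, which binds hemimethylated CG sites. Proteins with a methyl-CpG-binding domain read the mark: MBD1 and MBD2 bind methylated CG and recruit repressors, MBD2 and the related MBD3 are alternative subunits of the NuRD histone deacetylase and remodelling complex, and MBD4 is a glycosylase that removes thymine mispaired with guanine at CG sites. In the brain, neurons gain methylation after birth, including at sites other than CG, and this gain is known to depend on DNMT3A.

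Transcripts of the sex chromosomes were set against the labels first. Xist and the Y-linked Eif2s3y stood opposite to the label in 4 of the 6 arrays at 1 week, both were present in 1, and they matched the label in 5 of the 10 arrays, which included all 4 at 8 weeks. At 1 week the labels thus do not give the sex of each brain, and calls of members and counts of gene lists that changed without those 4 arrays are given beside the results. That setting keeps only 2 arrays at 1 week, 1 of them the array with both transcripts, and its model holds age alone. Calls lost there cannot be told apart from the loss of arrays. The arrays were also not on a common scale: trimmed means of the deposited intensities ran from 255 to 318 at 8 weeks and from 138 to 236 at 1 week. Levels below are quantile-normalized intensities, which cannot be compared between probe sets, and changes are log2(intensity + 24) at 8 weeks minus 1 week ± SE from a fit across all probe sets. That scale understates the change of dim probe sets.

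The 250 bases before the annotated start are shown for Dnmt1, Uhrf1 and Dnmt3a, the members whose probe sets were lower at 8 weeks. The sequences are from RefSeq on build GRCm38.p6, in the window with the most CG of each gene, written in the direction of transcription with each CG in capitals. The Dnmt1 window is chr9:20952624-20952873 on the minus strand, that of Uhrf1 is chr17:56304063-56304312 on the plus strand, and that of Dnmt3a is chr12:3806910-3807159 on the plus strand.
Dnmt1: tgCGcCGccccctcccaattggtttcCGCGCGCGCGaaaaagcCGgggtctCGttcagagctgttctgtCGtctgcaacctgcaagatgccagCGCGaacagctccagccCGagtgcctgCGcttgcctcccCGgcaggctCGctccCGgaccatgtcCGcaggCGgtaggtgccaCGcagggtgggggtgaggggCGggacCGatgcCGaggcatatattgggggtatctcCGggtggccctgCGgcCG
Uhrf1: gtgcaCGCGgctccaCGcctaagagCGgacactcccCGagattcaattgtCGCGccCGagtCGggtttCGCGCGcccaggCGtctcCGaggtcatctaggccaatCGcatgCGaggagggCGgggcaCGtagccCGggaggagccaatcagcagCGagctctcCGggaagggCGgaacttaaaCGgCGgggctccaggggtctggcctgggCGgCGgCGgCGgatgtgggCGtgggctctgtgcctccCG
Dnmt3a: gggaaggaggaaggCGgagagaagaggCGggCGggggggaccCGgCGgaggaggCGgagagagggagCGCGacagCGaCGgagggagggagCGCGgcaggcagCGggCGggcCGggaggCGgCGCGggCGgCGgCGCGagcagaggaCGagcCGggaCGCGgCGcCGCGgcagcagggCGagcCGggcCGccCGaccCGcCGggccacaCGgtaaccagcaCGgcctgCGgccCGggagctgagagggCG
All are rich in CG, the dinucleotide that these proteins bind or methylate, although the choice of the window with the most CG favours high counts. The Dnmt1 window held 26 CG, more than 90.4% of the 32851 promoter windows of the table, that of Uhrf1 held 30 CG (more than 94.1%) and that of Dnmt3a held 40 CG (more than 98.7%), against a median of 6 CG. Windows of 6 of the 8 members were used.

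Sites for E2F factors, which drive genes of DNA replication, were searched on both strands as the words TTTGGCGC, TTTCGCGC, TTTCCCGC and TTTGCCGC. Any of them stood in 1.86% of all windows. Dnmt1 held the reverse complement GCGCGAAA at position -219 from the start and Uhrf1 held TTTCGCGC at position -185, so that 2 of 6 members with a window had a word in it. Among the richest windows of genes with at least 26 CG, 117 of 2872 held a word (4.07%), and among the cell division list used below 4 of 23 did (17.4%). The Dnmt3a window held no such word and held the GC box GGGCGG, on either strand, 4 times. The Uhrf1 window held the GC box 3 times and that of Dnmt1 2 times, and 32.7% of all windows held it. CCAAT boxes (CCAAT, 33.8% of windows) stood 3 times in Dnmt1 and 2 times in Uhrf1. The motifs do not share letters except where 2 CCAAT boxes overlap in Dnmt1. Such matches describe letters and show no binding.

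Between 1 and 8 weeks Dnmt1 and Dnmt3a fell in every probe set that was bright enough to be tested. Neither Dnmt1 probe set passed on the deposited scale or with spike-in scaling, and 1 of Dnmt3a did not pass on the deposited scale. Both probe sets of Mbd2 rose, as did 1 of 3 of Mbd1, a call that was lost in 8 of 22 alternatives, while Mbd3 did not pass. A filter on mean brightness kept 12 of the 20 probe sets, from 5 of the 8 genes. It left out both probe sets of Dnmt3b and of Uhrf1, 2 of Mbd1, 1 of Dnmt3a and the single one of Mbd4. Of the 12 kept, 6 were lower and 3 higher at 8 weeks at an adjusted p under 0.05 (limma, Benjamini-Hochberg over all probe sets), and 3 did not pass. Of all 13576 probe sets tested, 24% were lower and 22% were higher. Without the filter, 7 of the 20 were lower, 3 higher and 10 did not pass, beside 15.3% lower and 14.7% higher among all 22626. The counts depended on the scale and the arrays. On the deposited scale, 6 of the 12 were higher and 3 lower, beside 8673 higher and 629 lower of all tested. With spike-in scaling 2 were higher and 4 lower, beside 3058 higher and 1236 lower of all tested. Without the 4 arrays with opposing sex transcripts 1 was higher and 5 lower, beside 2069 higher and 1973 lower of all tested. The median change was -0.21 for the 12 member probe sets kept and -0.015 for all probe sets tested. Of these 12, 4 read Dnmt3a and 2 read Dnmt1, so this median weights those genes more and is no value for the genes as a set. In bulk brain, fewer cells of a type and less RNA per cell cannot be told apart.

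**Figure D1:**
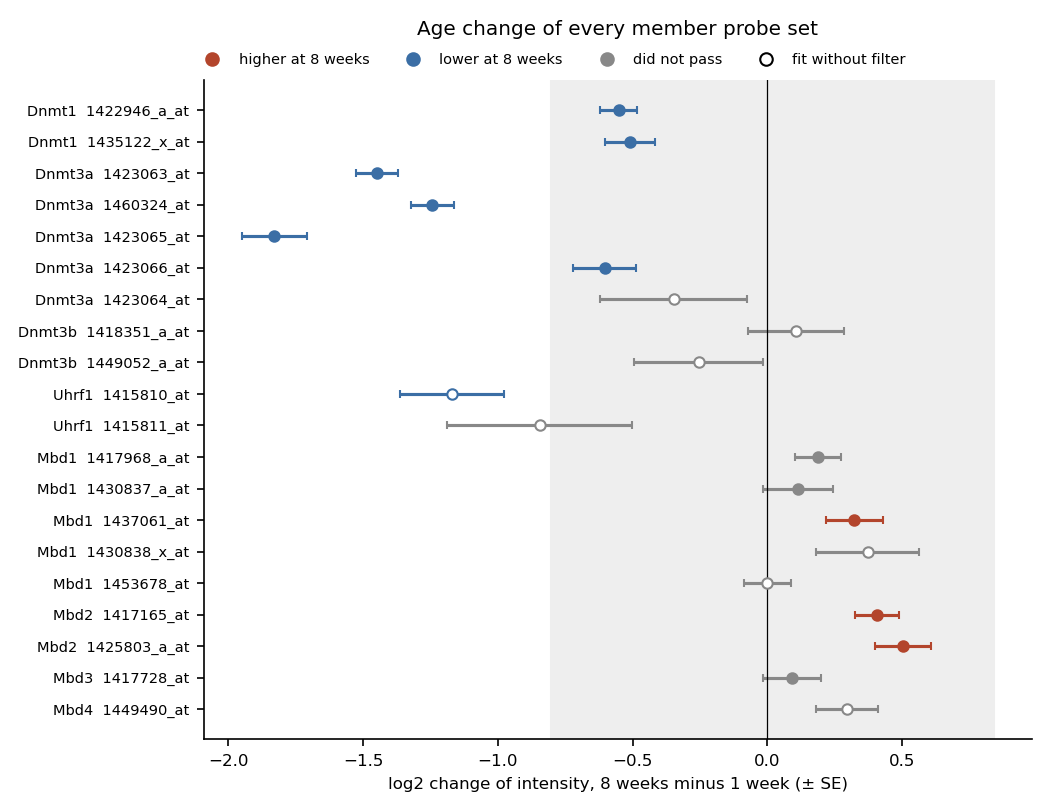
Change of every member probe set as log2 at 8 weeks minus 1 week (horizontal axis), with bars of ± SE, against the probe set (vertical axis). Red and blue points passed as higher and lower at 8 weeks, grey points did not pass, and open points are under the filter and come from the fit without it. The shaded band runs from -0.80 to 0.84, the 5th to the 95th percentile of all 13576 probe sets tested, and 3 probe sets of Dnmt3a and 2 of Uhrf1 lie to its left.

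Dnmt1, the maintenance methyltransferase, was lower at 8 weeks. Its brighter probe set, 1422946_a_at, read 442, 410.2, 390.5 and 411 at 8 weeks (labelled female 1 and 2, then male 1 and 2), against 562 to 656 with a median of 619.7 at 1 week. The 2 ages did not overlap, and the means were 413 ± 21.3 (SD, n = 4) at 8 weeks and 618 ± 33.6 (SD, n = 6) at 1 week. The change was -0.55 ± 0.07 (limma adjusted p = 1.25e-04), and 10.2% of all probe sets tested had a lower one. The other probe set, 1435122_x_at, whose suffix marks probes that may also match other transcripts, read 188, 199, 200.4 and 222 at 8 weeks and 238 to 349 at 1 week, with a median of 305. Again no array at 8 weeks reached the lowest at 1 week, and the change was -0.51 ± 0.09 (adjusted p = 0.00152).

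The size of the Dnmt1 difference rested on the scaling of the arrays. On the deposited scale, where the median probe set was higher at 8 weeks by 0.47, the changes were -0.015 ± 0.14 (adjusted p = 0.925) and -0.013 ± 0.16 (adjusted p = 0.945). Scaled to the spike-in controls, which moved the median by 0.14, they were -0.37 ± 0.17 (adjusted p = 0.0966) and -0.35 ± 0.18 (adjusted p = 0.131). On each of these scales both probe sets stood below the median of all probe sets tested. Without the 4 arrays with opposing sex transcripts, the brighter probe set kept its call at -0.58 ± 0.10 (adjusted p = 0.00524) and the other was at -0.42 ± 0.14 (adjusted p = 0.0559).

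Uhrf1, the partner that brings DNMT1 to replicated DNA, was dim in both probe sets. The brighter, 1415810_at, read 22.7, 14.5, 18.1 and 6.53 at 8 weeks, against 32.9 to 117 with a median of 62.3 at 1 week. Every array at 1 week was above every array at 8 weeks. In the fit without a filter the change was -1.17 ± 0.19 (adjusted p = 0.00178), and -1.25 ± 0.37 (adjusted p = 0.0632) without the 4 arrays with opposing sex transcripts. The second, 1415811_at, read 2.63, 1.96, 1.37 and 2.03 at 8 weeks and spread from 3.12 to 58.3 at 1 week, with a median of 20.8. Its ages did not overlap either, and its change of -0.84 ± 0.34 did not pass (adjusted p = 0.0977). No detection calls were used here, so how much of the lowest readings is background is unknown.

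**Figure D2:**
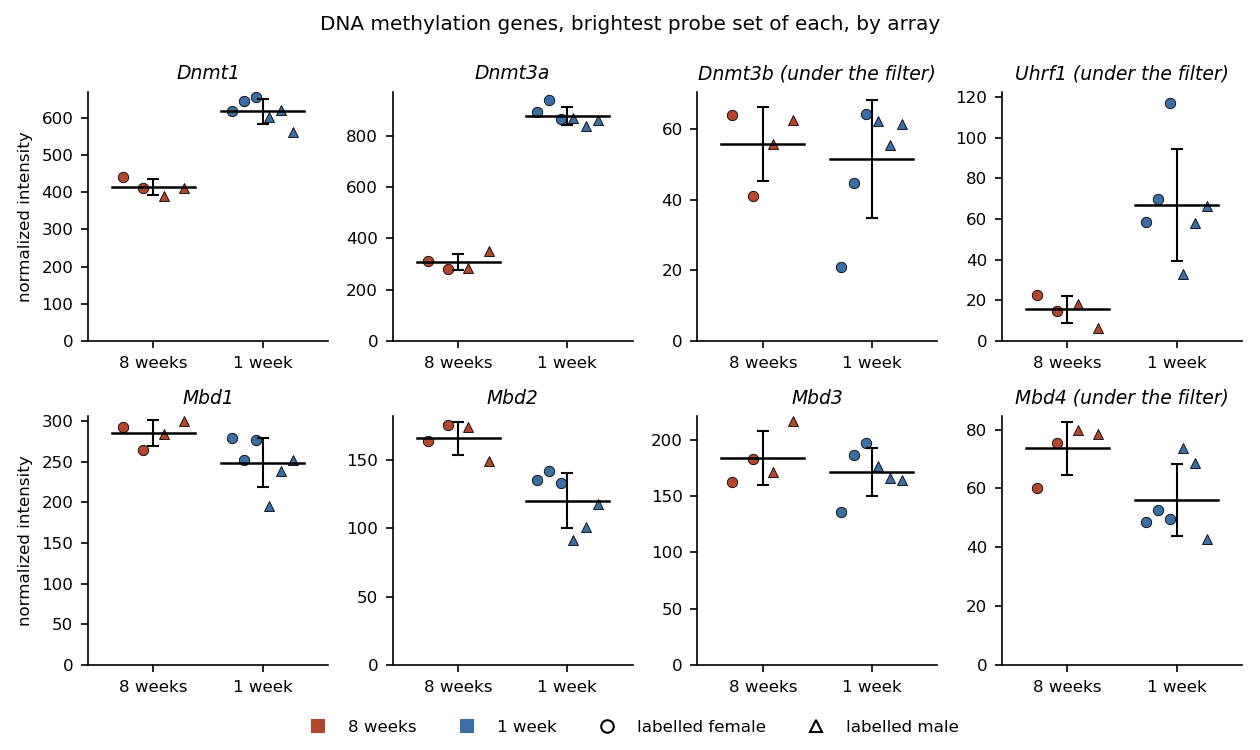
Normalized intensity (vertical axis) of the brightest probe set of each member gene, 8 weeks left of 1 week. Circles are arrays labelled female and triangles arrays labelled male, and lines and bars are mean ± SD (n = 4 at 8 weeks, n = 6 at 1 week). For Dnmt1, Dnmt3a and Uhrf1 all arrays at 8 weeks lie under all arrays at 1 week, and for Mbd2 all lie above.

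Dnmt3a, the de novo methyltransferase of postnatal neurons, had the largest fall among the member genes tested. Probe set 1423063_at read 311, 282, 286 and 350.3 at 8 weeks, against 837 to 937 with a median of 867 at 1 week. The means were 307 ± 31.5 (SD, n = 4) at 8 weeks and 877 ± 34.6 (SD, n = 6) at 1 week, a ratio of 0.367 with the pseudocount added. The change was -1.45 ± 0.08 (adjusted p = 8.19e-07), and 1.05% of all probe sets tested had a lower one. The highest array at 8 weeks was far below the lowest at 1 week.

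The other Dnmt3a probe sets differed in size of change. At 1460324_at the values were 300.4, 277, 267 and 302 at 8 weeks and 621 to 779.7, median 729, at 1 week, a change of -1.24 ± 0.08 (adjusted p = 2.05e-06). At 1423065_at they were 128, 119, 112 and 117 at 8 weeks and 360.3 to 567, median 502, at 1 week, a change of -1.83 ± 0.12 (adjusted p = 2.5e-06). Ages were far apart in both, and 0.567% of all probe sets tested had a change below that of 1423065_at. The fourth, 1423066_at, read 91.6, 73.3, 74.1 and 84.6 at 8 weeks and 91.7 to 154 at 1 week, with a median of 148. Its ages touched without overlapping, through 1 array at 1 week, labelled female replicate 1, and its change was -0.60 ± 0.12 (adjusted p = 0.00188). The fifth, 1423064_at, was under the filter, overlapped between ages (14.6 to 39.6 at 8 weeks, 16.3 to 77.1 at 1 week) and did not pass without it (-0.35 ± 0.27, adjusted p = 0.392).

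Scaling did not end the call of the 3 probe sets with the larger changes. On the deposited scale they were at -0.91, -0.71 and -1.34 (adjusted p at most 3.95e-04), and with spike-in scaling at -1.26, -1.06 and -1.67. The fourth was at -0.18 ± 0.16 on the deposited scale (adjusted p = 0.341). Which Dnmt3a transcript each probe set reads is not given by the annotation used here.

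**Figure D3:**
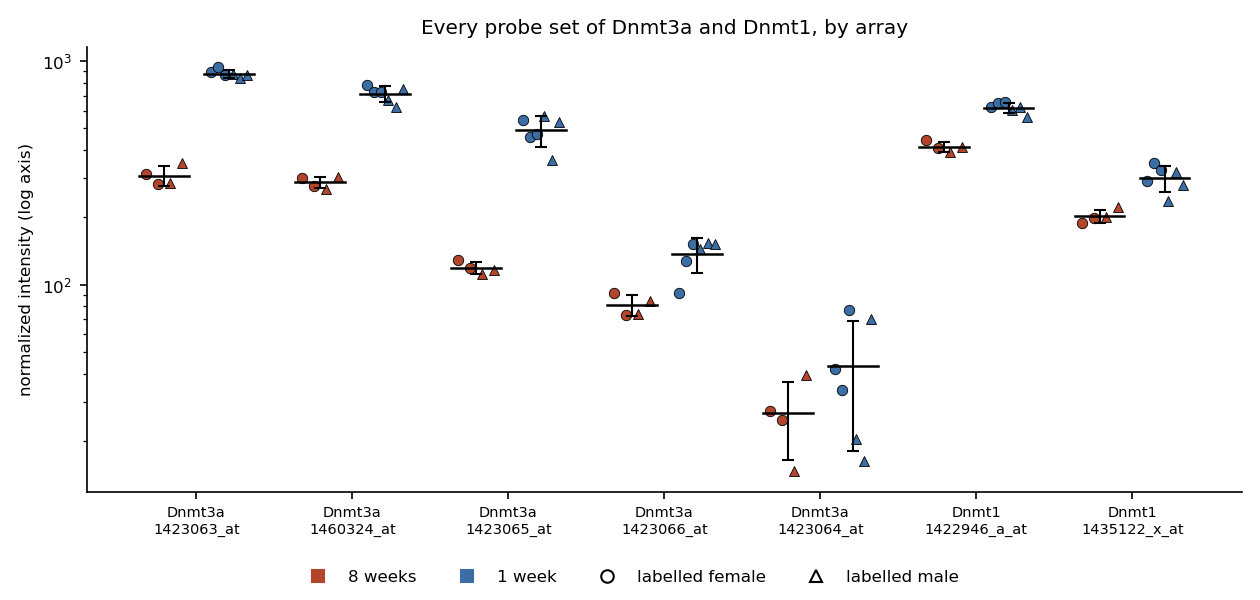
Normalized intensity on a log axis for every probe set of Dnmt3a and Dnmt1, 8 weeks left of 1 week, with circles for arrays labelled female, triangles for arrays labelled male, and mean ± SD (n = 4 and n = 6). The ages are apart in 6 of the 7 probe sets, and in 1423064_at of Dnmt3a, with means of 26.6 at 8 weeks and 43.4 at 1 week, they overlap.

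Dnmt3b, the paralog known mainly from early embryos, was dim at both ages. Probe set 1418351_a_at read 64.1, 40.9, 55.8 and 62.6 at 8 weeks and 20.9 to 64.3, median 58.5, at 1 week, and 1449052_a_at read 44.2, 41.2, 12.7 and 34.9 at 8 weeks and 10.5 to 66.1, median 48.5, at 1 week. The ages overlapped in both. Without a filter the changes were 0.11 ± 0.18 (adjusted p = 0.712, 95% interval -0.30 to 0.51) and -0.26 ± 0.24 (adjusted p = 0.483, 95% interval -0.80 to 0.29), and neither passed.

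Among the readers, Mbd2 was higher at 8 weeks. Probe set 1417165_at read 164, 176, 175 and 149.7 at 8 weeks, against 91.9 to 142 with a median of 126 at 1 week, a change of 0.41 ± 0.08 (adjusted p = 0.00254). Probe set 1425803_a_at read 92.9, 100.2, 109 and 111 at 8 weeks, against 51.2 to 81.8 with a median of 67.0 at 1 week, a change of 0.50 ± 0.10 (adjusted p = 0.00297). All arrays at 8 weeks stood above all at 1 week in both probe sets. Without the 4 arrays with opposing sex transcripts the changes were 0.50 ± 0.15 (adjusted p = 0.0369) and 0.33 ± 0.11 (adjusted p = 0.0604).

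Mbd1, a repressor that also binds unmethylated CG through its zinc fingers, gave less even readings. Its brightest probe set, 1417968_a_at, read 293, 264, 284 and 299.9 at 8 weeks and 196 to 279, median 252, at 1 week, with overlap and a change of 0.19 ± 0.09 (adjusted p = 0.101). Probe set 1437061_at read 124, 89.7, 87.0 and 78.1 at 8 weeks and 57.1 to 82.9, median 70.4, at 1 week, and passed at 0.32 ± 0.10 (adjusted p = 0.0287) although the ages overlapped. That call rested on single arrays: it was lost when any of 6 arrays was left out (labelled female 1 or male 1 at 8 weeks, labelled female 2 or 3 or male 1 or 2 at 1 week), with adjusted p from 0.0142 to 0.129 over all 10. It was also lost with spike-in scaling (0.42, adjusted p = 0.0516) and without the 4 arrays with opposing sex transcripts (0.38 ± 0.16, adjusted p = 0.113). Probe set 1430837_a_at spread from 102 to 133 at 8 weeks and from 67.8 to 132 at 1 week, with a change of 0.11 ± 0.13 (adjusted p = 0.503). The probe sets 1430838_x_at and 1453678_at were under the filter, with means of 26.9 and 12.6 at 8 weeks and 16.5 and 12.6 at 1 week, and did not pass without it (adjusted p = 0.186 and 0.998).

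Mbd3, the NuRD subunit with little affinity for methylated DNA in mammals, overlapped between the ages. Its probe set 1417728_at read 163, 183, 171 and 217 at 8 weeks and 136 to 197, median 171, at 1 week. The change was 0.09 ± 0.11 (adjusted p = 0.53), with a 95% interval from -0.15 to 0.33, and -0.028 without the 4 arrays with opposing sex transcripts. Mbd4, the glycosylase, read 60.3, 75.6, 79.9 and 78.6 at 8 weeks and 42.7 to 73.7, median 51.1, at 1 week. It was under the filter, and without it the change was 0.30 ± 0.11 and did not pass (adjusted p = 0.0854, 95% interval 0.036 to 0.56). On the deposited scale the Mbd3 change was 0.57 ± 0.15 (adjusted p = 0.00375), close to the 0.47 by which the median probe set moved there.

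In all, the ages did not overlap in 8 of the 12 member probe sets kept, beside 35.4% of all probe sets kept, and in 10 of all 20, beside 25% of all probe sets.

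The age difference was next taken within each label. Changes had the same sign in arrays labelled female and in arrays labelled male in 11 of the 12 probe sets kept, the exception being 1430837_a_at of Mbd1 (0.36 in female, -0.13 in male). For 1423063_at of Dnmt3a they were -1.53 ± 0.11 in arrays labelled female and -1.37 ± 0.11 in those labelled male, and for 1422946_a_at of Dnmt1 they were -0.56 ± 0.10 in arrays labelled female and -0.54 ± 0.10 in those labelled male. Of the 12, 5 were lower and 0 higher in arrays labelled female (limma), beside 16.2% lower and 14.4% higher among all probe sets. There 1425803_a_at of Mbd2 was at 0.42 ± 0.15 (adjusted p = 0.0527) and 1437061_at of Mbd1 at 0.40 ± 0.15 (adjusted p = 0.0663). In arrays labelled male 5 were lower and 2 higher, both of Mbd2, beside 16.6% lower and 15.5% higher. The label contrasts themselves called 0 of 13576 probe sets (limma, adjusted p under 0.05), with 469 at an unadjusted p under 0.05 for male minus female and 759 for the interaction of age and label. Of the 12 member probe sets, 1 had an unadjusted p under 0.05 for the label, 1417165_at of Mbd2 (male minus female -0.20 ± 0.08, limma adjusted p = 0.999), and 0 for the interaction. Given the opposing transcripts, these contrasts compare labels and not sexes.

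5 pairs of members were then compared on the same array. The log2 difference between their brightest probe sets was taken on each array, and its shift between ages was tested over the 210 ways to divide the arrays (two-sided exact permutation test, smallest possible p = 0.00476, adjusted over 5 pairs). By these probe sets Dnmt3a fell more than Dnmt1. Their difference was -0.40 ± 0.13 (SD, n = 4) at 8 weeks and 0.49 ± 0.08 (SD, n = 6) at 1 week, without overlap, a shift of -0.90 (exact permutation adjusted p = 0.0119). With the mean of all probe sets per gene the shift was smaller, at -0.56 (exact permutation adjusted p = 0.0119). Dnmt3b minus Dnmt3a was -2.06 ± 0.14 at 8 weeks and -3.61 ± 0.40 at 1 week, without overlap, a shift of 1.55 (exact permutation adjusted p = 0.0119). Dnmt3b itself was under the filter and at 0.11, so this shift mostly restates the fall of Dnmt3a and is no separate evidence of unequal change.

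Uhrf1 minus Dnmt1 was -3.49 ± 0.25 at 8 weeks and -2.87 ± 0.39 at 1 week, with overlap, a shift of -0.62 (exact permutation adjusted p = 0.0476). This call was lost with a pseudocount of 100 (-0.036, adjusted p = 0.935), with the mean of all probe sets per gene (-0.48, adjusted p = 0.107) and without 8 of the 10 arrays in turn. It was kept at a larger size with a pseudocount of 8 (-1.08, adjusted p = 0.0238) and on the deposited scale (-0.91, adjusted p = 0.00794), so its size and its call rested on the pseudocount and scale. Mbd3 minus Mbd2 was 0.12 ± 0.24 at 8 weeks and 0.44 ± 0.27 at 1 week, a shift of -0.32 that did not pass (exact permutation adjusted p = 0.131). With the mean of all probe sets it was -0.36 and passed (adjusted p = 0.0397). Mbd1 minus Mbd4 was 1.67 ± 0.17 at 8 weeks and 1.78 ± 0.37 at 1 week, a shift of -0.11 (exact permutation adjusted p = 0.576).

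**Figure D4:**
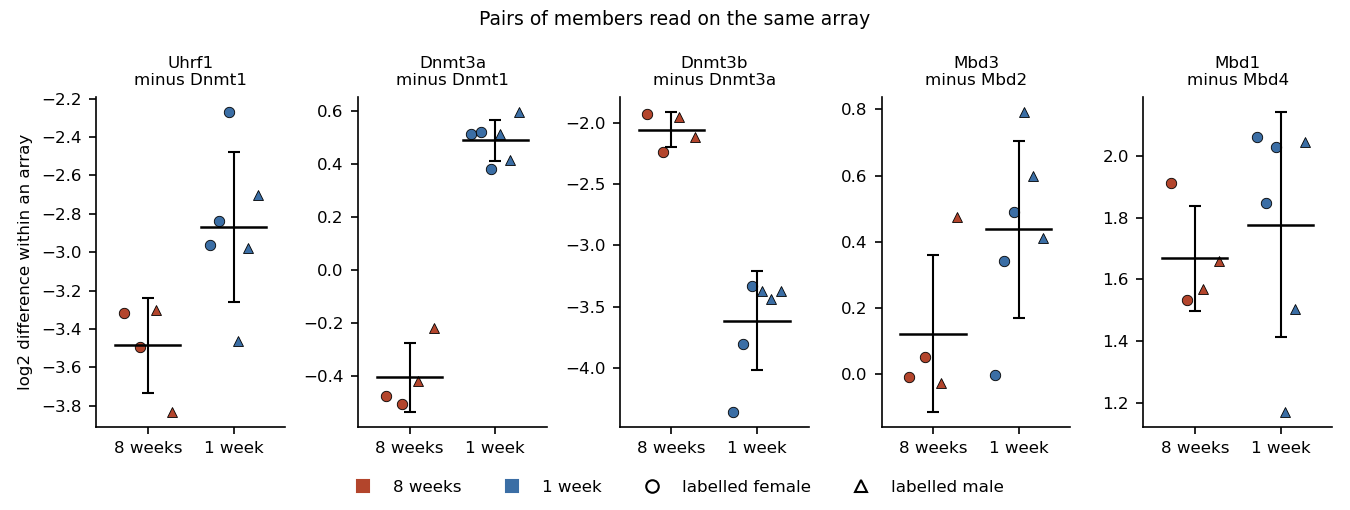
Difference in log2 intensity between the brightest probe sets of 2 members on the same array (vertical axis, a separate scale per pair), 8 weeks left of 1 week, with circles for arrays labelled female, triangles for arrays labelled male, and mean ± SD (n = 4 and n = 6). The ages do not overlap for Dnmt3a minus Dnmt1 and for Dnmt3b minus Dnmt3a, where Dnmt3b is under the filter.

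The genes around the members were counted by lists, each gene by its brightest probe set. Of 8148 genes tested, 24% were lower and 21.9% higher at 8 weeks. List counts under other settings stand beside those of all 13576 probe sets tested. These were 8673 higher and 629 lower on the deposited scale, and 3058 higher and 1236 lower with spike-in scaling. Without the 4 arrays with opposing sex transcripts they were 2069 higher and 1973 lower. List genes not mentioned with a value were either not analysed here, under the filter or covered by the counts. Of other writers and maintenance factors, 8 of 10 were read and 4 tested, of which 1 fell and 3 did not pass. Pcna, the replication clamp that also tethers DNMT1, averaged 468 ± 52.5 (SD, n = 4) at 8 weeks and 894 ± 74.7 (SD, n = 6) at 1 week, a change of -0.90 ± 0.08 (adjusted p = 1.83e-05). The deubiquitinase gene Usp7 was at 0.17 ± 0.07 and the ligase gene Lig1 at -0.45 ± 0.18, and neither passed. Hells and Cdca7, which encode a remodeller and its partner that aid methylation, were under the filter. Their ages did not overlap, as in 25% of all probe sets, with means of 18.4 and 3.72 at 8 weeks and 32.7 and 47.4 at 1 week. Without the filter their changes were -0.41 ± 0.10 and -1.34 ± 0.12 (limma adjusted p = 0.0146 and 6.31e-05). Dnmt3l and Trdmt1, also under the filter, did not pass without it.

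Of other methyl-CpG readers and proteins with the binding domain, 2 of 4 tested fell: Setdb1, a histone H3 lysine methyltransferase (-0.46 ± 0.11), and Baz2b, a bromodomain protein (-0.42 ± 0.08). Both were at about 0 on the deposited scale (0.059 and 0.018), where the median probe set stood at 0.47, and neither passed with spike-in scaling or without the 4 arrays with opposing sex transcripts. Of the NuRD partners, 3 of 11 tested fell and 8 did not pass. The deacetylase gene Hdac2 averaged 92.6 at 8 weeks and 199.7 at 1 week, a change of -0.94 ± 0.08 (adjusted p = 1.48e-05). Its paralog Hdac1 was at -0.33 ± 0.07 and Mta2, a scaffold subunit, at -0.48 ± 0.11. Chd4, the ATPase, was at 0.22 ± 0.16 and the histone-binding subunits Rbbp4 and Rbbp7 at -0.10 ± 0.07 and -0.07 ± 0.07, and none of these passed. Hdac1 was at 0.18 on the deposited scale, and with that scale 7 of the 11 were called higher and 1 lower, while with spike-in scaling 0 were higher and 1 lower. Of these 11, 2 were lower without the 4 arrays with opposing sex transcripts.

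Of 11 heterochromatin and corepressor genes tested, 4 fell, 1 rose and 6 did not pass. Sin3b, a corepressor scaffold, was at -0.91 ± 0.07, Trim28, the corepressor of zinc finger proteins, at -0.56 ± 0.09, and Ehmt2, a histone H3 lysine methyltransferase, at -0.45 ± 0.08. Tbl1xr1, a subunit of the nuclear corepressor complex, rose by 0.27 ± 0.07. On the deposited scale Ehmt2 was at 0.099 and Trim28 at -0.014, with 5 genes of the list higher and 1 lower, and with spike-in scaling neither passed, with 1 higher and 1 lower. Without the 4 arrays with opposing sex transcripts 0 were higher and 3 lower, and Tbl1xr1 lost its call. Of 8 demethylation and repair genes tested, 1 fell and 1 rose. Tet1, which oxidizes methylcytosine, averaged 78.9 ± 14.5 at 8 weeks and 133 ± 16.4 at 1 week (-0.61 ± 0.11, adjusted p = 0.00152), and was at -0.18 on the deposited scale, where it did not pass. Gadd45b, a stress-induced gene linked to demethylation, averaged 113 ± 10.4 at 8 weeks and 64.6 ± 12.7 at 1 week (0.64 ± 0.10, adjusted p = 7.05e-04). Gadd45a and Ung of this list were under the filter. In the fit without it Gadd45a was higher at 0.54 ± 0.13 (limma adjusted p = 0.0141), with ages apart. Ung was lower there at -0.58 ± 0.11 (limma adjusted p = 0.00479), with overlapping ages.

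Genes of the methyl donor cycle, which makes and recycles S-adenosylmethionine, were mostly higher at 8 weeks: 6 of 9 tested rose, 1 fell and 2 did not pass. Their median change was 0.44, beside -0.020 over all genes tested, and the sum over the measured genes ran from 5872 to 6621 at 8 weeks and from 3618 to 4051 at 1 week. Ahcyl2, a relative of adenosylhomocysteinase, rose by 1.46 ± 0.10, Mat2b, the regulatory subunit of methionine adenosyltransferase, by 1.18 ± 0.10, and Adk, which clears adenosine from the cycle, by 0.91 ± 0.08. Ahcy, the hydrolase itself, was at -0.17 ± 0.08 and did not pass. Shmt2, the mitochondrial serine hydroxymethyltransferase, was at -0.26 ± 0.09 (adjusted p = 0.0457) and lost its call or changed sign under each other scaling. Ahcyl2 and Ahcyl1, which also passed (0.60 ± 0.07), are known mainly as partners of the inositol trisphosphate receptor. Both enter the count and the sum, with means of 1190 and 2192 at 8 weeks and 417 and 1434 at 1 week. Shmt1 was under the filter, and without it was lower at -1.04 ± 0.23 (limma adjusted p = 0.00833), with overlapping ages. Bhmt and Gnmt, also under the filter, did not pass without it. Without the 4 arrays with opposing sex transcripts, 4 of the 9 were higher.

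Imprinted genes, whose parental alleles are told apart by methylation, moved in both directions: of 21 tested, 8 fell, 3 rose and 10 did not pass. Nnat, which is also a marker of immature neurons, was at -2.14 ± 0.11, the cell cycle inhibitor gene Cdkn1c at -1.31 ± 0.19 and Igf2 at -1.12 ± 0.13. Rasgrf1, an exchange factor of neurons, rose by 1.45 ± 0.13 and Snrpn by 0.73 ± 0.16. On the deposited scale 11 were higher and 4 lower, with spike-in scaling 4 were higher and 5 lower, and without the 4 arrays with opposing sex transcripts 3 were higher and 6 lower.

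**Figure D5:**
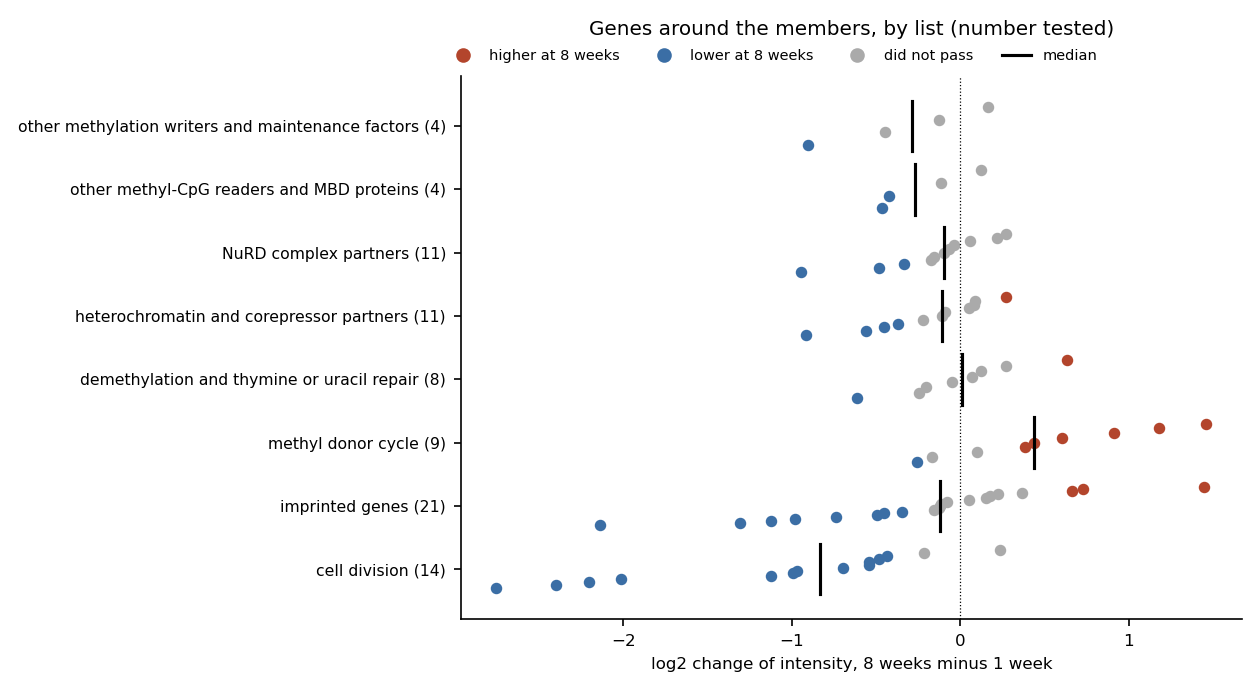
Log2 change at 8 weeks minus 1 week (horizontal axis) of each gene tested, by list (vertical axis, with the number tested), where red genes passed as higher, blue genes as lower and grey genes did not pass, and black lines are medians. Among these lists, which leave out the cell type markers, cell division genes have the lowest median, -0.83, and methyl donor genes the highest, 0.44.

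Cell division genes, which rise in cells that copy their DNA and its methylation, fell in 12 of 14 tested, with a median of -0.83. Of the 26 listed, 25 were read, and those read but not tested were under the filter. Cdk1, the mitotic kinase, averaged 22.6 ± 18.4 at 8 weeks and 286 ± 84.6 at 1 week (-2.75 ± 0.24). Mcm6, part of the replicative helicase, averaged 17.5 ± 3.87 at 8 weeks and 197 ± 39.0 at 1 week (-2.40 ± 0.13). Top2a, a topoisomerase of mitosis, averaged 29.9 at 8 weeks and 230 at 1 week (-2.20 ± 0.18). At 8 weeks these genes averaged under 74.5, the lowest mean kept, so they passed the filter through their arrays at 1 week. For such genes the filter favours a lower call, and the share that fell is no independent result. Summed over the list, intensity ran from 1591 to 2584 at 8 weeks and from 3145 to 4689 at 1 week, without overlap. The count was 7 on the deposited scale and 8 with spike-in scaling, with 0 higher on either. It was 8 of 11 tested without the 4 arrays with opposing sex transcripts.

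Markers of cell types also differed between the ages, in both directions. All 10 immature neuron markers fell, with a median of -2.25 and sums from 6101 to 6549 at 8 weeks and from 24718 to 29090 at 1 week. Oligodendrocyte precursor markers fell in 4 of 6 tested, with sums from 2001 to 2589 at 8 weeks and from 2696 to 3395 at 1 week. Endothelial and meningeal markers fell in 5 of 10 and rose in 1, with sums from 2120 to 2423 at 8 weeks and from 2990 to 10324 at 1 week. All of these sums were lower at 8 weeks without overlap. Mature neuron markers rose in 7 of 9 tested, with sums from 16911 to 18750 at 8 weeks and from 10502 to 12875 at 1 week. Oligodendrocyte markers rose in 5 of 7, with sums from 14115 to 18370 at 8 weeks and from 2391 to 11499 at 1 week. Microglia markers rose in 7 of 8, with sums from 3377 to 4490 at 8 weeks and from 2536 to 3049 at 1 week. In these lists the sums were higher at 8 weeks without overlap, and so were those of the astrocyte markers, of which 5 of 10 rose and 1 fell (14658 to 15772 at 8 weeks and 7025 to 9956 at 1 week). Granule cell markers rose in 4 of 7, with overlapping sums from 2565 to 10104 at 8 weeks and from 1453 to 4795 at 1 week. Choroid plexus and pituitary markers rose in 2 of 5, with sums from 9221 to 17332 at 8 weeks and from 5173 to 8667 at 1 week. The 1 erythroid marker tested fell, and the erythroid sums overlapped, at 121 to 183 at 8 weeks and 138 to 489 at 1 week. Without the 4 arrays with opposing sex transcripts, 2 of 8 microglia, 5 of 9 mature neuron and 3 of 7 granule cell markers rose, all 9 immature neuron markers tested fell, the erythroid marker did not pass, and the other counts were as above. On the deposited scale 2 oligodendrocyte precursor markers were higher and 2 lower, 5 endothelial and meningeal markers were higher and 3 lower, and 8 of 10 astrocyte and 4 of 5 choroid plexus and pituitary markers were higher. Of 79 marker genes read, 6 were under the filter and 0 were at 0 on any array. The part of these cell types in the members' differences was not tested.

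For each member kept, the genes with the most similar profile were named by the root mean square difference of centred log2 values over the 10 arrays, out of 8147 genes. For Dnmt1 these were Hmgn3 (0.0284), Sh3glb1 (0.0477) and Wdr82 (0.0594), against a median of 0.328 over all genes, with changes of -0.57, -0.58 and -0.55 beside the -0.55 of Dnmt1. For Dnmt3a they were Angptl4 (0.107), Amz2 (0.109) and Deaf1 (0.111), against a median of 0.725, with changes of -1.41, -1.38 and -1.56. For Mbd2 they were Mxd4 (0.0668), Adprm (0.0842) and Tmem184c (0.0902). Those of Mbd1 were Rsbn1, Galc and Ctcf (0.0481 to 0.0672) and those of Mbd3 Krcc1, Sema6d and Coq7 (0.084 to 0.0922), none of which passed for age. These profiles share the arrays and their scaling, and likeness here is a description.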

How the data were processed

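Total RNA of brain was hybridised, per the labels. Each deposited column held the linear intensity of every probe set on 1 array, and the software that summarised the probes is not given in the sources used here. After 64 array controls were dropped, the 22626 probe sets were quantile-normalized, 24 (the 20th percentile) was added, log2 was taken, and those under the 40th percentile of mean log2 were left out (the lowest mean intensity kept was 74.5, and some probe sets with higher means but lower mean log2 were left out), leaving 13576. limma 3.58.1 under R 4.3.3 (lmFit, then eBayes) estimated 1 mean per age and label, with two-sided tests, Benjamini-Hochberg adjustment over all probe sets and a threshold of 0.05. The code was tested on simulated data. The number of arrays limits the precision. Of the probe sets, 20380 had a single symbol, 691 several and 1555 none; for each gene the brightest of its single-symbol probe sets was used. From each list up to 3 genes passing in the main direction and 2 in the other, with ages apart, were named, and any gene that shares a complex with a member. Other genes named were chosen after their values were seen. Members and lists were chosen with earlier results of these data known. Promoters are from RefSeq (GRCm38.p6). Deviations of same-numbered arrays from their group means correlated with r from -0.025 to 0.19 in 13 pairs, 5 of them over 0.1. A weak shared deviation is thus present in some pairs. Numbers were not treated as pairs in the main fit, and a fit with them as a block is among the alternatives. Alternatives were other pseudocounts, scalings, filters and models, and arrays left out.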

Additional observations from a re-analysis of the deposited data

Results flagged for a closer look

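The Mbd1 probe set 1430838_x_at, which is under the filter, read 38.65 in replicate 3 labelled male at 1 week, against 3.97 to 16.4 in the other 5 arrays of that age (n = 6), a gap of 0.641 of the whole range. It was the 1 such value in 40 groups of member readings examined, and chance gives such a gap in about 1 of 20 groups. Its 8-week arrays read 23.3 to 30.5.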

How the results depend on the processing

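Of 271 values of the member probe sets tested under alternatives, 252 kept their direction and side of the threshold, 15 lost the call, 3 gained it and 1 changed sign, Mbd3 at -0.028 without the 4 arrays whose sex transcripts oppose their label. Counts of members below are counts of their probe sets. The choice of scaling mattered most. Deposited values without normalization gave 8673 probe sets higher and 629 lower, and 6 members higher and 3 lower; they turned the sign of Setdb1 (0.059), Baz2b (0.018), Hdac1 (0.18), Ehmt2 (0.099), Shmt2 (0.21) and Mbd1 minus Mbd4 (0.018). Scaling to the spike-in controls, added after seeing the data, gave 1236 lower. A filter at the 60th percentile tested fewer members and called 0 higher, since it removed those probe sets. Without the 4 arrays 1973 probe sets were lower and 1 member higher, from fewer samples. For Uhrf1 minus Dnmt1 the shift was -0.036 with a pseudocount of 100 and -0.48 with the mean of probe sets, and for Mbd3 minus Mbd2 it was -0.36 with that mean; the cause was not tested. Leaving out each array gave 2480 to 2936 probe sets higher, 2729 to 3126 lower, 2 to 3 members higher and 6 lower each time, and shifts of -0.76 to -0.49 for Uhrf1 minus Dnmt1, -0.95 to -0.86 for Dnmt3a minus Dnmt1, 1.40 to 1.61 for Dnmt3b minus Dnmt3a, -0.43 to -0.25 for Mbd3 minus Mbd2, which passed without replicate 1 labelled female at 1 week (adjusted p = 0.0496), and -0.23 to -0.053 for Mbd1 minus Mbd4. With the replicate number as a block, 3 members were higher and 6 lower, Dnmt3a 1423063_at was at -1.46 and Dnmt1 1422946_a_at at -0.56, and no member call changed.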
